A study of Jaculus jaculus with 29 samples.

Results

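Amphiregulin (Areg), the other ligands of the epidermal growth factor (EGF) family and the ErbB receptors were examined in the supraoptic nucleus of the lesser Egyptian jerboa, Jaculus jaculus. The genes were chosen by symbol, and Areg was selected on its difference between Dehydrated and Control animals in these same data. Of 10 listed symbols, 8 were found under their name in the authors' deposited table and in the count table of 29170 genes. These were the ligands Areg, Hbegf, Tgfa and Btc and the receptors Egfr, Erbb2, Erbb3 and Erbb4. Ereg was placed by the position of its RefSeq gene, which brought the number to 9, and Nrg1 matched no gene of the count table. All 8 genes named by the authors passed the filter on low counts, and Ereg did not.

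Polyadenylated RNA from punches of the supraoptic nucleus was sequenced in 29 libraries. Rehydrated animals (9 libraries, 4 female and 5 male) had 7 days of water restriction followed by 3 days of free water. Dehydrated animals (10 libraries, 6 female and 4 male) had 11 days of water restriction, and Control animals (10 libraries, 5 of each sex) always had free water. All animals were housed singly and had dry food, and the labels name no transgene or drug. The restriction therefore differed in length between the Rehydrated and the Dehydrated animals.

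Ligands of this family are made as membrane-anchored precursors and are released by metalloproteases of the ADAM family. Areg, Hbegf, Tgfa, Btc and Ereg bind Egfr, and some of them also bind Erbb4, whereas neuregulins bind Erbb3 and Erbb4. Erbb2 has no known ligand and acts as the partner of the other receptors, and Erbb3 has little kinase activity of its own. In the hypothalamus, Tgfa and Erbb4 signalling in glia is known from work on the onset of puberty.

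Total counts per library ranged from 10797577 to 18856620, and 17558 genes were tested. The defining markers of magnocellular neurons were present in every library, with Avp, the vasopressin precursor, at 200.7 to 5179.1 CPM (counts scaled to a common library total) and Oxt, the oxytocin precursor, at 159 to 1975 CPM. Control M01 stood apart, at 137 on the first principal component against -13.7 to 7.76 for the other libraries. Control M01 also had the lowest total, 10797577 counts, and the fewest genes with a count, 19384. The next fewest were 19876, in Control F03. Results that rest on Control M01 are given with and without it. In such bulk tissue, fewer cells of a type and less RNA per cell cannot be told apart.

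The ligand genes lay partly together. On the mJacJac1 assembly Areg (ENSJJAG00000023793) lies on the minus strand of chromosome 11 from 2177924 to 2186284. Btc lies at 1953414 to 1996286 on the plus strand and Ereg at 2232718 to 2247298 on the minus strand of the same chromosome. In the RefSeq annotation Btc, Areg, Ereg and Epgn, the gene of a further EGF-family ligand, fall within 395 kb with 0 protein-coding genes in the gaps between them. The counted exons of Areg sum to 742 bases. The RefSeq gene starts lower, at 2176020, which is its 3′ end, and reads from that stretch lie outside the counted exons. Tgfa and Erbb3 are both on chromosome 6, Erbb4 is on 4, Erbb2 on 9, Hbegf on 13 and Egfr on 16.

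Areg was higher in most Dehydrated animals than in any Control animal. Per library, Areg had 28.9, 21.8, 17.5, 13.4, 13.2, 11.7, 8.15, 1.95, 1.86 and 1.09 CPM in Dehydrated animals. The 10 Control libraries ran from 0.662 to 4.85 CPM with a median of 1.06 CPM. Of the Dehydrated libraries, 7 lay above every Control library, and the other 3 (F07, M08 and M02, the last labelled female) lay within the Control range. Between these 3 and the next Dehydrated library was a gap from 1.95 to 8.15 CPM, so the Dehydrated values are described as separate ranges. The gap was seen in these 10 values, and whether it is more than their spread was not tested.

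Areg averaged 12.0 ± 9.15 CPM in Dehydrated animals and 1.46 ± 1.28 CPM in Control animals (SD, n = 10 each). On the log2 scale the fold change was 3.12 (standard error, SE, 0.50), given as a description because it chose the gene. Without Control M01, whose 4.85 CPM was the highest Control value, the Control mean was 1.08 ± 0.491 CPM (SD, n = 9) and the log2 fold change 3.46. The authors' deposited table gives 3.48 (SE 0.47) for this gene, as did DESeq2 without Control M01. In this comparison 1 of the 8 members passed the threshold, against 0.125% of all genes by edgeR and 0.233% by DESeq2, a count that the choice of Areg fixed in part.

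**Figure D1:**
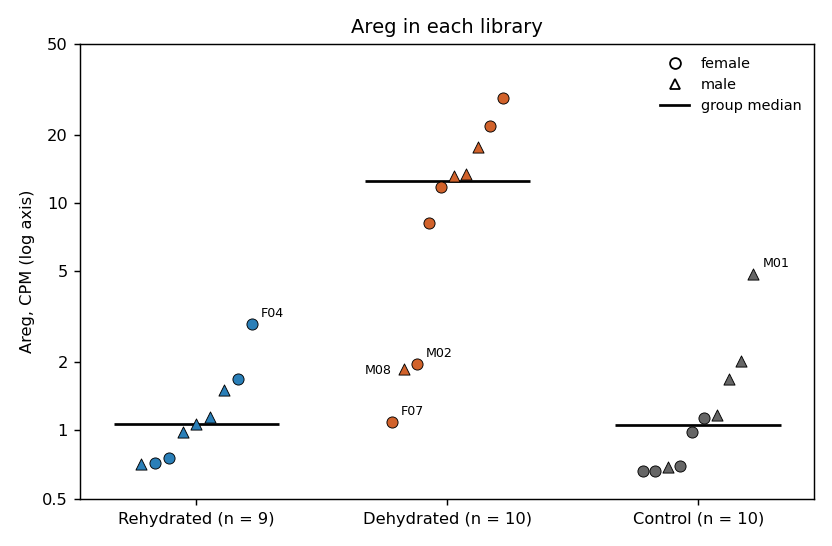
Areg in CPM (log axis) in each library of Rehydrated, Dehydrated and Control animals, with circles for females, triangles for males and bars for group medians. Of the Dehydrated libraries 7 lie above every Control library, and F07, M02 and M08 lie between 1.09 and 1.95 CPM.

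Areg was low in Rehydrated animals. No group was sampled after 7 days of restriction without water, so their level before water was returned is not known. The 9 Rehydrated libraries ran from 0.711 to 2.92 CPM with a median of 1.06 CPM, and 5 of them lay above the Control median. Rehydrated and Control animals overlapped over nearly their whole range, and the highest Rehydrated library, F04, lay below Control M01. Areg averaged 1.28 ± 0.705 CPM in Rehydrated animals (SD, n = 9), and on the log2 scale it differed from Control by -0.13 (SE 0.53, adjusted p = 0.965 by edgeR). The 95% interval of this difference ran from -1.22 to 0.96, so moderate differences in either direction were not detectable. Without Control M01 the value was 0.24 (adjusted p = 0.945 by edgeR), a change of sign.

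Areg was lower in Rehydrated than in Dehydrated animals, by a log2 fold change of -3.24 (SE 0.51, adjusted p = 0.0052 by edgeR). The Dehydrated libraries are those that also chose Areg, so this p is not independent of that choice. All 9 Rehydrated libraries lay below 7 of the 10 Dehydrated libraries and overlapped the other 3. An exact two-sided permutation test of log2 CPM gave a difference of -2.63 and p = 0.000855. The call was lost when only the Rehydrated and Dehydrated libraries were fitted, with a value of -3.19 (adjusted p = 0.139 by edgeR). Areg was the single member past the threshold, against 0.0228% of all genes by edgeR and 0.0742% by DESeq2.

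The difference was also set out within each sex, with the same Dehydrated libraries that chose Areg, so these p-values are not independent of that choice either. In males, Areg ran from 0.711 to 1.499 CPM in 5 Rehydrated libraries and from 1.86 to 17.5 CPM in 4 Dehydrated libraries, with no overlap. How many of all genes separate in this way was not counted. The difference of mean log2 CPM was -2.92, and the exact two-sided permutation p was 0.00794, the smallest that these numbers allow. In females, Areg ran from 0.719 to 2.92 CPM in 4 Rehydrated libraries and from 1.09 to 28.9 CPM in 6 Dehydrated libraries. The ranges overlapped, the difference of mean log2 CPM was -2.37, and the exact two-sided permutation p was 0.0619. Whether the sexes differ in this comparison was not tested.

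Hbegf and Tgfa overlapped between the treatments, and Ereg, at very low counts, was higher in some Dehydrated libraries. Hbegf, the heparin-binding ligand, averaged 8.07 ± 1.28 CPM in Dehydrated and 9.24 ± 2.10 CPM in Control animals (SD, n = 10 each), which is -0.19 on the log2 scale (SE 0.13). In Rehydrated animals Hbegf averaged 8.19 ± 1.29 CPM (SD, n = 9). The 3 groups overlapped, from 6.73 to 10.4 CPM in Rehydrated, 5.92 to 9.86 CPM in Dehydrated and 5.54 to 12.1 CPM in Control libraries.

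Tgfa, a ligand of Egfr only, was the ligand with the highest level per exon length in each group. It averaged 29.2 ± 3.16 CPM in Dehydrated and 26.96 ± 7.64 CPM in Control animals (SD, n = 10 each), and 29.04 ± 6.34 CPM in Rehydrated animals (SD, n = 9). Control M01 had 6.66 CPM, and the next lowest Control library had 24.7 CPM. On the log2 scale Dehydrated over Control was 0.11, and 0.01 once Control M01 was left out.

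Btc, which binds Egfr and Erbb4, was near the floor of the measurement, with 7 to 16 counts in Rehydrated, 6 to 24 in Dehydrated and 0 to 17 in Control libraries. On the log2 scale Dehydrated over Control was 0.32 (SE 0.35). Ereg, another Egfr and Erbb4 ligand, averaged 0.159 ± 0.170 CPM in Rehydrated (n = 9), 0.446 ± 0.450 CPM in Dehydrated (n = 10) and 0.119 ± 0.146 CPM in Control animals (SD, n = 10). It had at most 9 counts in Rehydrated, 20 in Dehydrated and 6 in Control libraries, with no count in 3, 2 and 4 of them, and it was not tested. Of the 10 Dehydrated libraries 5 (F04, F05, F06, F07 and M05) lay above every Rehydrated and every Control library for Ereg. The margin of F06 was small, at 0.506 CPM, since the highest Rehydrated library had 0.504 CPM. Of these 5, 4 were also among those that stood above for Areg, as 7 of all 10 Dehydrated libraries did. This overlap is therefore not read as agreement, and it was not tested. F07 had 17 counts of Ereg and the lowest Areg value of the Dehydrated libraries.

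For Nrg1, the ligand of Erbb3 and Erbb4, 4 gene models without a name lie inside the RefSeq span on chromosome 9, from 68936545 to 70065727. They are not taken as Nrg1, and no value is given for it.

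The levels of Egfr, Erbb2 and Erbb4 overlapped between all 3 treatments. Egfr, the receptor of Areg, averaged 23.52 ± 2.46 CPM in Dehydrated and 24.1 ± 6.63 CPM in Control animals (SD, n = 10 each), and 22.9 ± 3.16 CPM in Rehydrated animals (SD, n = 9). Erbb2 averaged 11.2 ± 1.18 CPM in Rehydrated, 12.5 ± 2.26 CPM in Dehydrated and 11.1 ± 2.85 CPM in Control animals. Erbb4 averaged 30.8 ± 4.65 CPM in Rehydrated, 32.4 ± 4.04 CPM in Dehydrated and 28.5 ± 10.2 CPM in Control animals (SD, n = 9, 10 and 10, as for Erbb2). Between Rehydrated and Control animals the 95% intervals of the log2 fold change ran from -0.38 to 0.21 for Egfr, -0.27 to 0.29 for Erbb2, -0.75 to 0.23 for Erbb3 and -0.31 to 0.53 for Erbb4.

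Control M01 set much of the Control spread of the receptors. It had 7.23 CPM of Egfr, where the next lowest Control library had 22.01 CPM, and 3.62 CPM of Erbb4, where the next had 20.8 CPM. For Erbb4, Dehydrated over Control was 0.18 on the log2 scale, or 0.05 once Control M01 was left out. For Egfr, Rehydrated over Control was -0.08, or -0.20 once Control M01 was left out (unadjusted p = 0.0122, adjusted p = 0.535 by edgeR).

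**Figure D2:**
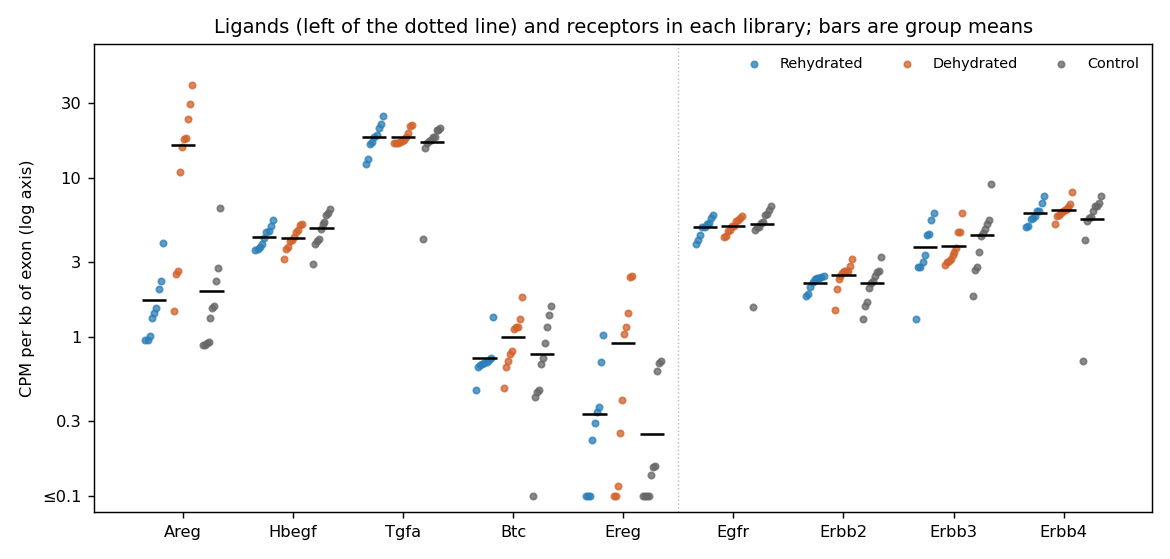
Level of each gene in CPM per kb of counted exon (log axis, values under 0.1 drawn at 0.1) in Rehydrated, Dehydrated and Control libraries, with bars for group means. Areg in Dehydrated animals averaged 16.1 CPM per kb, close to Tgfa at 18.3 CPM per kb, and the receptors overlap between groups.

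Of the 7 members other than Areg, 0 passed the threshold by edgeR in any treatment comparison. Between Dehydrated and Control animals their log2 fold changes ran from -0.20 for Erbb3 to 0.32 for Btc, given as a description. Between Rehydrated and Control animals 0 of 8 members passed by edgeR, against 0% of all genes, and 0 had an unadjusted p under the threshold. DESeq2 gave none of the 8 an adjusted p in that comparison and called 0.508% of the 3940 genes for which it gave one. Without Control M01 it gave one for 17521 genes, the 8 members included, and called 3 genes and 0 members. Between Rehydrated and Dehydrated animals the other 7 members had an adjusted p of 1.00 by edgeR. The median log2 fold change of the 8 members was 0.14 in Dehydrated over Control, -0.08 in Rehydrated over Control and -0.07 in Rehydrated over Dehydrated animals, where the medians of all genes were 0.00 in each. Without Control M01 the medians of the members were 0.03, -0.08 and -0.08 in the same order.

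**Figure D3:**
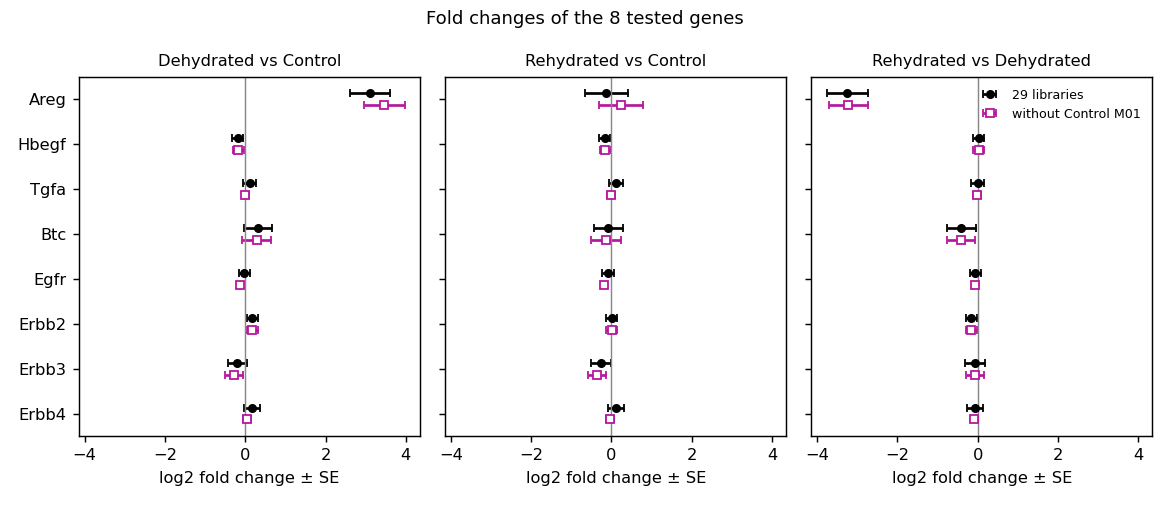
Log2 fold change with SE of the 8 tested genes in each treatment comparison, with all 29 libraries (filled circles) and without Control M01 (open squares). Areg stands at 3.12, -0.13 and -3.24 in the panels from left to right, and the other genes lie between -0.41 and 0.32.

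Per exon length, the order of the genes was alike in Rehydrated and Control animals, where Tgfa came first, then Erbb4, Egfr, Hbegf, Erbb3, Erbb2, Areg, Btc and Ereg. Tgfa was above Erbb4 in all 9 Rehydrated and all 10 Control libraries. Neighbours from Erbb4 to Erbb3 did not separate in Control animals, where Erbb4 exceeded Egfr in 6 of 10 libraries and Egfr exceeded Hbegf in 6 of 10. In Dehydrated animals Areg stood second, at 16.1 ± 12.3 CPM per kb, after Tgfa at 18.3 ± 1.97 CPM per kb (SD, n = 10). Tgfa was the higher of the pair in 7 of 10 Dehydrated libraries, so their order did not hold beyond the spread of Areg. As for Areg, RefSeq genes of other members reach past the counted 3′ end, unequally. The excess was 6746 bases for Erbb4, 3004 for Btc, 1799 for Tgfa, 1038 for Erbb3, 367 for Hbegf and -505 for Erbb2. Egfr, on the minus strand, starts at 6225744 in RefSeq and at 6230154 as counted. The effect on the order between genes was not tested.

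**Figure D4:**
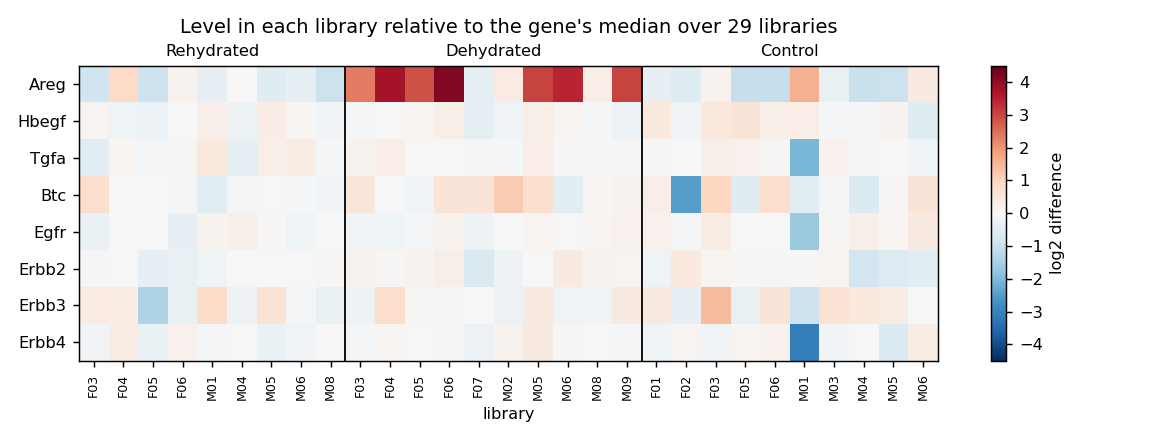
Log2 CPM of the 8 tested genes in each library relative to the gene's median over the 29 libraries (red higher, blue lower). Areg is deep red in 7 Dehydrated libraries, and Control M01 is blue for Tgfa, Egfr and Erbb4 and red for Areg.

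No member passed the test between the sexes. Areg averaged 5.59 CPM in females and 4.42 CPM in males, and the log2 fold change fitted with treatment in the model was -0.18 (SE 0.41, adjusted p = 0.993 by edgeR). Without Control M01, Egfr was lower in females by a log2 fold change of -0.21 (unadjusted p = 0.00155, adjusted p = 0.930 by edgeR). Of the 8 members 0 passed by edgeR, where 0.0342% of all genes did, and 0 passed by DESeq2, where 0.0571% did. The difference between the sexes in the response to dehydration was tested as an interaction. For Areg it was 1.37 on the log2 scale (SE 0.95, adjusted p = 0.855 by edgeR), and 0.83 without Control M01. Of the 8 members 0 passed this test by edgeR, against 0% of all genes, and 0 by DESeq2, against 0.0114%.

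The machinery around the receptors was examined in lists of 59 genes, of which 54 were tested. Sheddases and their regulators, feedback inhibitors, the Ras and PI3K relay and genes that respond to ERK were each taken as a list. In no treatment comparison did any of the 54 genes pass the threshold by edgeR, nor by DESeq2 where it gave an adjusted p. By edgeR, 6 had an unadjusted p under 0.05 between Dehydrated and Control animals, 1 between Rehydrated and Control and 2 between Rehydrated and Dehydrated. Of all 17558 genes, 1118, 1313 and 681 did so by edgeR in the same order. By DESeq2 the counts were 6, 2 and 2 for the list genes and 1236, 1428 and 768 for all genes.

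The 9 genes of sheddases and their regulators were compared in Dehydrated over Control, Rehydrated over Control and Rehydrated over Dehydrated. Their medians on the log2 scale were -0.04, -0.06 and -0.03 in this order. Adam12, a metalloprotease, had the lowest value of the list between Dehydrated and Control animals, -0.46 (SE 0.20, adjusted p = 0.720 by edgeR). The 16 feedback genes had medians of 0.04, 0.02 and 0.02, and ran from Lrig2, a membrane protein of the LRIG family, at -0.30 to Cbl, a ubiquitin ligase for Egfr, at 0.25 in Dehydrated over Control. The 18 relay genes had medians of 0.02, 0.02 and -0.01.

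The 9 ERK-responsive genes spread most. In Dehydrated over Control animals Fosl1, a Fos-family transcription factor, stood at 0.78 on the log2 scale (SE 0.27, adjusted p = 0.587 by edgeR). Fos, an immediate early gene, stood at -1.03 (SE 0.31, adjusted p = 0.461 by edgeR). The list median was 0.09 in that comparison, -0.07 in Rehydrated over Control and -0.05 in Rehydrated over Dehydrated. Of 5 other ligands on the list, Egf and Nrg3 were tested. Egf, at 0.712 CPM in Rehydrated, 0.548 CPM in Dehydrated and 0.479 CPM in Control animals on average, stood at 0.23 (SE 0.66) in Dehydrated over Control, 0.89 (SE 0.69) in Rehydrated over Control and 0.66 (SE 0.67) in Rehydrated over Dehydrated. Nrg3, a ligand of Erbb4, stood at -0.06, -0.09 and -0.03 in the same comparisons.

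**Figure D5:**
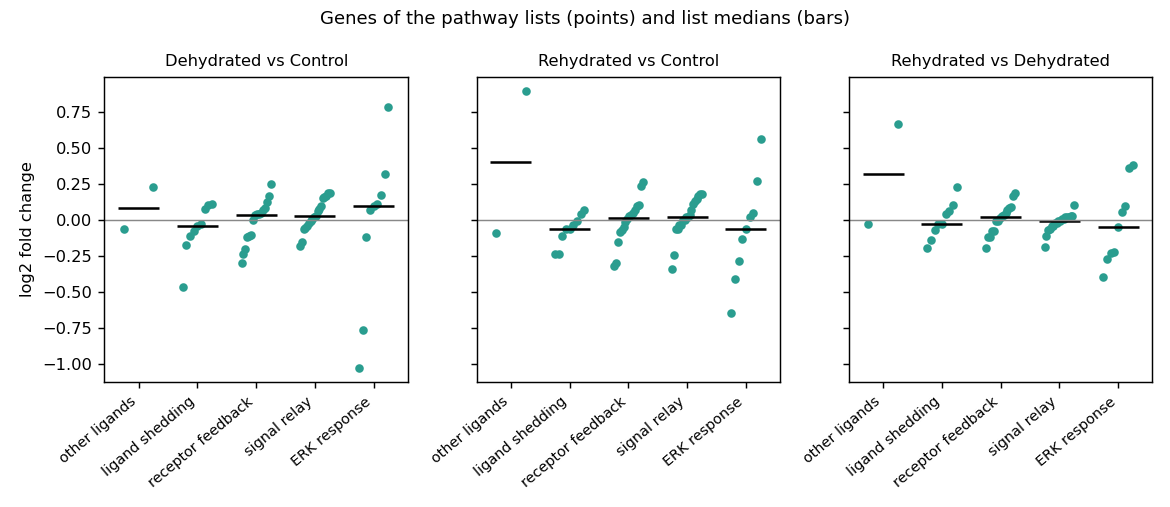
Log2 fold change of each tested gene of the pathway lists (points) in each treatment comparison, with list medians as bars. Medians of the 4 larger lists lie within 0.1 of 0, and the values farthest from 0 are Fos at -1.03 in Dehydrated over Control, Egf at 0.89 in Rehydrated over Control and Fosl1 at 0.78 in Dehydrated over Control.

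Within groups, Areg was set beside the other 7 members. Because the Dehydrated values of Areg fall into separate ranges, no pooled coefficient is given for them. In the planned test, which permuted Areg within groups over 29 libraries, 0 of 7 relations had an adjusted p under the threshold, and likewise 0 without Control M01. In the Dehydrated libraries alone, where Areg spans its separate ranges, 0 of 7 passed, and Hbegf and Erbb2 came closest with an adjusted permutation p of 0.0527 each. In Rehydrated libraries alone (n = 9) the strongest was Erbb4, with Pearson's r of 0.79 (permutation p = 0.0102, adjusted p = 0.0715) and Spearman's rho of 0.57 (permutation p = 0.121). Without the 2 Rehydrated libraries farthest from the Areg median r was 0.28, so the relation rests on those libraries.

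The genes whose level was most like that of Areg across the 29 libraries, among 12170 and with group means removed, are given as a description. They were Rtn4ip1 and Olfml2b with Pearson's r of 0.72, Ifih1, ATF5 and SPP1 with 0.68, Csrp2 and PDYN with 0.67, and H1f2, Fam111a and Hmox1 with 0.66. These coefficients serve only to rank the genes, since they span the separate ranges of Areg in the Dehydrated libraries and take in Control M01. In the 19 Rehydrated and Control libraries Rtn4ip1 had 0.71, Olfml2b 0.53 and SPP1 0.12. Without Control M01, 5 of the 10 genes stayed in the list, and Pcsk1, a prohormone convertase, came first with 0.82, where it had ranked 244 with all libraries. Vgf, a secreted neuropeptide precursor, followed with 0.74, Olfml2b with 0.70 and PDYN, the prodynorphin gene of vasopressin neurons, with 0.69. Ell2 and Rtn4ip1 then had 0.68, Elk3 0.67, SPP1 and H1f2 0.66 and Fosl2 0.65. In the Rehydrated and Control libraries Pcsk1 had -0.29 with Control M01 and 0.56 without it. Vgf had -0.10 and 0.09 in the same order, and PDYN 0.44 and 0.50.

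Markers of other cells were summed beside these values. The 7 magnocellular markers summed to 1478 to 6686 CPM in Rehydrated, 3547 to 8996 in Dehydrated and 1879 to 4797 CPM in Control libraries. The largest parts of this sum were Avp, Scg2 and Oxt, with medians of 1929, 1363 and 723 CPM over the libraries. Of the 7, 3 were higher in Dehydrated than in Control animals past the threshold by edgeR, where 20 of all 17558 genes were. Without Control M01 this count was 2, against 15 of 17545 genes, and Avp was no longer among the markers called (adjusted p = 0.0879 by edgeR). With all libraries the markers did not move together. The log2 fold change was highest for Avp, at 1.81 (SE 0.37), and negative for 2 of the 7. The lowest was Oxt at -0.07 (SE 0.35, adjusted p = 0.972 by edgeR). The part of these 7 markers in the Areg difference was not tested. Microglial markers, of which 7 of 8 were found, summed to 120 to 218 CPM in Rehydrated, 108 to 172 CPM in Dehydrated and 100 to 315 CPM in Control libraries, and Control M01 was the highest. Leukocyte markers, of which 7 of 9 were found, summed to 16.7 to 48.7 CPM in Rehydrated, 19.4 to 32.7 CPM in Dehydrated and 15.2 to 31.1 CPM in Control libraries. Blood markers, of which 2 of 4 were found, summed to 33.6 to 962 CPM in Rehydrated, 31.7 to 187 CPM in Dehydrated and 114 to 806 CPM in Control libraries. The part of these markers in the Areg difference was not tested either.

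Levels of Erbb3 followed oligodendrocyte markers from library to library. Erbb3 is known in the oligodendrocyte lineage, and its level ran from 6.80 to 31.5 CPM in Rehydrated, 14.7 to 31.2 CPM in Dehydrated and 9.42 to 47.9 CPM in Control libraries. Against the mean of 4 oligodendrocyte markers over 28 libraries, with group means removed and Control M01 left out, Pearson's r was 0.87 and Spearman's rho 0.84. Both permutation p-values were 1e-05, the smallest that 100000 permutations give, and the adjusted p over 77 relations of 7 members with 11 marker lists was 0.000385 for r. Without the 2 libraries farthest from the marker median r was 0.84, and with Control M01 it was 0.82. Against 5 markers listed for oligodendrocyte precursors (Pdgfra, Cspg4, Gpr17, Olig1 and Sox10) r was 0.84, and 0.71 without the 2 farthest libraries. With this list rho was 0.68 (adjusted permutation p = 0.0104). The relation to this list was not tested apart from that to the oligodendrocyte markers.

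Astrocyte markers gave weaker relations. Hbegf had r of 0.63 (permutation p = 0.00201, adjusted p = 0.0387) and rho of 0.61 with 7 astrocyte markers over 28 libraries, and 0.61 without the 2 farthest. Erbb2 had r of 0.70 (permutation p = 0.00073, adjusted p = 0.0187), and 0.46 without the 2 farthest; its rho of 0.58 did not pass (adjusted permutation p = 0.0627). With Control M01 included, neither relation passed after adjustment.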

How the data were processed

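Fragments per gene were counted with featureCounts 1.6.2 on the Ensembl annotation of mJacJac1, per the file headers, and the deposited values are whole counts with no strand option. The alignment file names in that header carry the word Rsubread; alignment settings are not stated there. The submitters' processing notes name DESeq2, and the authors' deposited tables hold log2 fold changes with SE, p-values and adjusted p-values. They also hold 56 per-library columns, 28 in each of 2 tables, which were not used; none bears the name of Control M01. Genes took the authors' names, or a RefSeq name of the same assembly where both spans overlapped by at least 0.5.

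The members and gene lists were chosen with earlier results of these data known. The test was edgeR 4.0.16 (R 4.3.3): filterByExpr on group, TMM, and a robust quasi-likelihood fit of group and sex over 29 libraries, with Benjamini-Hochberg adjustment over 17558 genes and a threshold of 0.05. SE is the log2 fold change over the square root of F, and intervals cover 95% with 25 residual degrees of freedom, which is approximate. CPM uses TMM-scaled totals, and log2 CPM a prior count of 2. Each library was taken as a separate animal, as the labels number the samples; where they were not, p-values measure technical spread. For 3 libraries the sex label, not the letter in the name, was used. Named list genes are those past the test or with a list's largest or smallest fold change, and the genes most like Areg are the 10 with the highest r and a mean of at least 1 log2 CPM. Correlations with marker lists, exact permutation tests and DESeq2 1.42.0 without Control M01 were added after seeing the data. The fits were tested on simulated data.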

Additional observations from a re-analysis of the deposited data

Results flagged for a closer look

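Of 27 combinations of a gene and a group, 7 held a library far from the others of its group, where chance gives about 1 in 20. Control M01 was the far library for 4 genes. It had 4.85 CPM of Areg, against at most 2.03 CPM in the other Control libraries, and 6.66 CPM of Tgfa, 7.23 CPM of Egfr and 3.62 CPM of Erbb4, all below the other Control libraries. Rehydrated F04 had 2.92 CPM of Areg, and the next Rehydrated library had 1.68 CPM. Rehydrated F03 had 1.10 CPM of Btc, which rests on 16 counts, and the next had 0.603 CPM. Control F03 had 47.9 CPM of Erbb3, and the next Control library had 28.2 CPM.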

How the results depend on the processing

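Areg kept its direction and its call in 36 of 37 alternatives of Rehydrated against Dehydrated (other scaling, filters, covariates, DESeq2 and each library left out). Fitted on only those groups its log2 fold change was -3.191 and 0 members passed; the cause was not tested. Leaving out each library in turn gave -3.581 to -2.98. For Rehydrated over Control it gave -0.4141 to 0.2401 for Areg, where the sign turned without Control M01, -0.01495 to 0.1723 for Tgfa, -0.2449 to 0.1006 for Btc, -0.06125 to 0.09124 for Erbb2 and -0.02645 to 0.1855 for Erbb4. For Rehydrated over Dehydrated it gave -0.02555 to 0.06254 for Hbegf, -0.06709 to 0.06397 for Tgfa and -0.1552 to 0.06009 for Erbb3. For Dehydrated over Control it gave -0.1276 to 0.01394 for Egfr. For females over males it gave -0.3786 to 0.004169 for Areg, -0.04315 to 0.03766 for Hbegf, -0.07679 to 0.05328 for Tgfa and -0.02325 to 0.1228 for Erbb4. By DESeq2 without Control M01, Rehydrated over Control was 0.2484 for Areg, -0.01378 for Tgfa and -0.02501 for Erbb4, and females over males was -0.07756 for Tgfa and -0.02435 for Erbb4, each of the opposite sign to the value with all libraries. With the letter of the name as sex, females over males was 0.149 for Areg, 0.06852 for Erbb2 and 0.02573 for Erbb3. None of these sign changes involved a called value, and their causes were not tested. Btc has no value for Rehydrated over Control fitted on only those groups, because the filter removed it.

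The replicate numbers are shared between groups, but same-numbered libraries correlated by only -0.115 to 0.110. This gave no sign that the numbers pair the animals, though such correlations cannot exclude a pairing. With the replicate block, Areg was 3.461 in Dehydrated over Control and -3.528 in Rehydrated over Dehydrated, and the same counts of members passed. Signs turned for Btc (-0.0585) and Egfr (0.004046) in Dehydrated over Control and for Egfr in Rehydrated over Control (0.005393). They also turned for Hbegf (-0.08834), Tgfa (0.03265), Egfr (0.001347) and Erbb4 (0.01003) in Rehydrated over Dehydrated. In females over males they turned for Hbegf (-0.2985), Tgfa (-0.3353), Btc (-0.3756) and Erbb4 (-0.3376). Depth limits Btc and Ereg most, which had at most 24 and 20 counts in a library, and Areg outside the Dehydrated group, with 8 to 51 counts.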
